A study of Mus musculus with 6 samples.

Results

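Skeletal muscle RNA was measured through 38 genes of the 55631 in an expression table of embryonic mouse palate. They were chosen by symbol for what they encode, namely myogenic transcription factors, fusion proteins, sarcomere and calcium-handling proteins and subunits of the muscle acetylcholine receptor, and all 38 were found by Ensembl gene ID. RNA-seq was run on palatal shelves, the paired outgrowths that form the roof of the mouth, taken at E14.5. The 3 control embryos carried p130Casfl/fl, floxed alleles of the gene for the adhesion adaptor p130Cas, with no Cre in their labels, and the 3 KO embryos carried p130Casfl/fl with CAG-Cre. CAG is a broadly active promoter, so the genotype does not aim Cre at muscle, and the design text names the KO embryos p130CascKO. Levels are in FPKM, a fragment count corrected for the length of the gene and the size of the library, so genes can be compared per length. No label names a litter, so every p-value here rests on the spread among these 6 samples alone, and part of it may be technical.

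Muscles of the soft palate arise from head mesoderm that enters the shelves. Pax7 marks muscle progenitors, Myf5 and MyoD commit cells to the muscle lineage, and myogenin switches on differentiation. Myoblasts then fuse through the membrane proteins myomaker and myomixer and assemble sarcomeres, in which myosin thick filaments pull on actin thin filaments under the control of troponin and calcium. The embryonic and perinatal myosins and the fetal receptor subunit are used before birth and are later replaced by adult forms. In bulk tissue, fewer muscle cells and less RNA per muscle cell cannot be told apart.

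The sequences before the transcription starts of 5 members are shown because these genes varied together over the libraries and because their start regions hold letters that the MyoD family is known to bind. They are the 250 bases before the start from RefSeq on GRCm38.p6, 5′ to 3′ on the gene's strand, and were picked after the values had been seen. Chrna1 lies at chr2:73580339-73580588 on the minus strand, Chrng at chr1:87205561-87205810 on the plus strand, Mylpf at chr7:127211358-127211607 on the plus strand, Acta1 at chr8:123894776-123895025 on the minus strand and Klhl41 at chr2:69669870-69670119 on the plus strand. The windows of Chrng and Mylpf lie inside the gene spans of the GENCODE annotation, which begin at 87204657 and 127208890. For these genes the RefSeq start used here is thus not the first base of the annotated gene. Capitals mark CAGCTG, an E-box, and 1 further motif in each of the last 2 windows, a CArG box in Acta1 and a MEF2 site in Klhl41.
Chrna1: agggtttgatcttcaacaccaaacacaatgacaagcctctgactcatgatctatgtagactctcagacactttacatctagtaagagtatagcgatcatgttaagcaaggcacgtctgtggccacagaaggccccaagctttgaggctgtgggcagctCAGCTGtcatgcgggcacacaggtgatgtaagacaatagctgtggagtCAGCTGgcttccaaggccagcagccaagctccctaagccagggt
Chrng: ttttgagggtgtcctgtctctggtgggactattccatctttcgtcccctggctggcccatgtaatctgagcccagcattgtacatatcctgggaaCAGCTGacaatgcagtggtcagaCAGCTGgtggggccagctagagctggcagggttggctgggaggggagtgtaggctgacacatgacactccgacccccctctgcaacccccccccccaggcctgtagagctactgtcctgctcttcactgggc
Mylpf: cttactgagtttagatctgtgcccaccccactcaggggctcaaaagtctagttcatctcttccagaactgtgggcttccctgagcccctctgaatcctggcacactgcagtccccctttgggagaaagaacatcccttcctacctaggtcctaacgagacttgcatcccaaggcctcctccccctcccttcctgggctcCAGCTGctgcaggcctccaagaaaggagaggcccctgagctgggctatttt
Acta1: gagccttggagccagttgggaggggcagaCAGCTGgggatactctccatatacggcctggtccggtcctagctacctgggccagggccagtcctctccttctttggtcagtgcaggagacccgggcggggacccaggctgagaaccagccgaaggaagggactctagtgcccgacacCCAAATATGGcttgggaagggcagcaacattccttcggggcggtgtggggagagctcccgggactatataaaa
Klhl41: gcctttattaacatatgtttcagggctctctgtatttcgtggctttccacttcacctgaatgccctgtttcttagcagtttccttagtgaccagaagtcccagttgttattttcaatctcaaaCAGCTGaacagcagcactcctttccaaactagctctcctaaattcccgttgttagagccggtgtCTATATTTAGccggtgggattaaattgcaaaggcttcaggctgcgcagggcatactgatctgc

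The E-box CAGCTG began 92 and 44 bases before the start of Chrna1 and 155 and 132 bases before that of Chrng. It began 51 bases before the start of Mylpf, 221 before that of Acta1 and 127 before that of Klhl41. The CArG box of Acta1, the site of serum response factor, began at 73 bases, and the MEF2 site of Klhl41 at 63 bases. RefSeq start regions were matched for 30 members with 33 windows, since some genes have more than 1 start. Chrnd, Tnni2, Mymk, Tnnt3, Myod1, Myf6, Neb and Mymx had no entry. With both strands searched, CAGCTG stood in 16 of the 33 windows (48.5%), beside 13.0% of all 32851 windows of that length. The E-box CAGGTG stood in 8 (24.2%, beside 17.2%) and the general E-box CANNTG, which includes both of the others, in 28 (84.8%, beside 66.2%). A MEF2 site stood in 5 windows (15.2%, beside 2.92%) and a CArG box in 2 (6.06%, beside 1.47%). These are matches of letters and say nothing of binding in these embryos.

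The 6 libraries summed to between 384979 and 424993 FPKM, with 21500 to 21869 genes above 0, and the reads behind a value are unknown. Bcar1, which encodes p130Cas, stood at 1.80, 1.97 and 2.09 FPKM in controls and 1.69, 1.69 and 1.31 FPKM in KO libraries. The log2 fold change of Bcar1 was -0.21 ± 0.11 (SE; limma, adjusted p = 0.9996). A value for a whole gene can include exons outside the floxed part, and whether it did so here was not tested. KO 2 was the 1 library with Xist above 0, at 61.0 FPKM, and Ddx3y was at 0 in it, so its embryo differed in sex from those of the other 5. The members' median is given below with and without it.

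The amount of muscle RNA differed from library to library more than by genotype. The 38 genes together made up 0.151%, 0.217% and 0.262% of all FPKM in controls 1 to 3 and 0.155%, 0.214% and 0.171% in KO 1 to 3. Control 1 and KO 1 were thus low, control 3 was high, and control 2 and KO 2 lay close together, so the groups overlapped. On the scale of log2(FPKM + 1), the median of the 36 members with a mean of at least 1 FPKM lay at -0.39, 0.09 and 0.30 from the control mean in controls 1 to 3. It lay at -0.40, 0.04 and -0.27 in KO 1 to 3, while the median of all 14714 tested genes lay between -0.04 and 0.00 in every library. The lowest control matched the lowest KO library, and the range inside each group was wider than the distance between the groups.

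**Figure D1:**
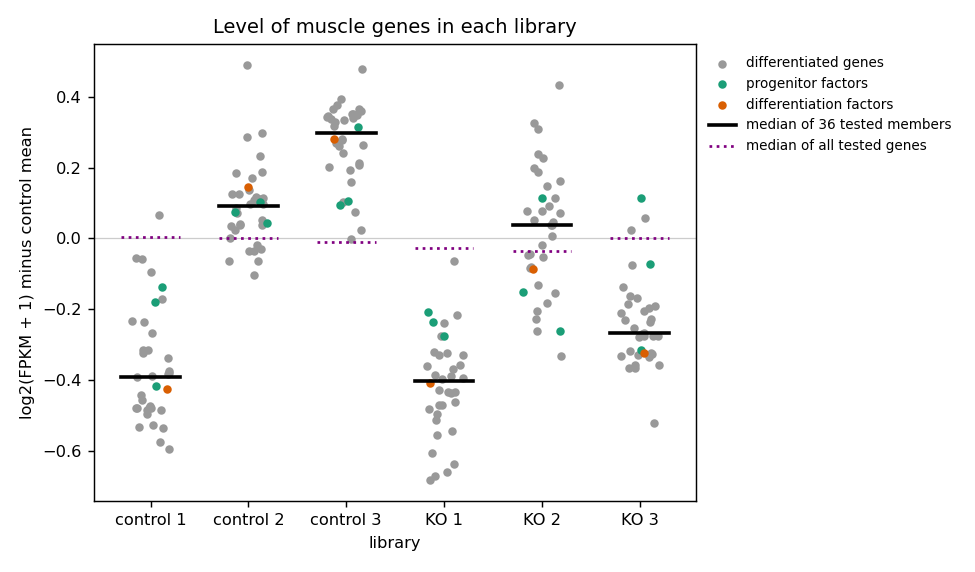
Each point is 1 of the 36 tested muscle genes, with its log2(FPKM + 1) minus the mean of the 3 controls on the y axis and the library on the x axis, and black bars mark the median of the members. The bars sit at -0.39 in control 1 and -0.40 in KO 1, at 0.30 in control 3 and at 0.04 in KO 2, while the dotted medians of all tested genes stay near 0.

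Most members placed the libraries in the same order. Control 3 held the highest value for 29 of the 36 members, where it did so for 17.7% of all tested genes. KO 1 held the lowest for 18 members and control 1 for 13, beside 20.7% and 11.7% of all genes. Controls 2 and 3 both stood above control 1 and KO 1 for 34 of 36 members, beside 26.1% of all genes. KO 2 was the highest KO library for 30 members (37.0% of all genes) and stood above control 1 for 32 (44.0% of all genes). The highest library exceeded the lowest by 1.44-fold for Mybpc1, the narrowest spread of a tested member, and by 2.69-fold for Chrnd, the widest.

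Between genotypes, 0 of the 36 tested members passed in limma at an adjusted p under 0.05 in either direction. Over all tested genes, 0.326% were called higher and 0.0068% lower in KO. Without adjustment, 0 members were higher and 2 were lower at a p under 0.05, Neb and Ryr1, beside 2.09% and 1.92% of all tested genes. All 36 had a fold change below 0, as did 59.4% of all tested genes, and the median log2 fold change was -0.21, beside -0.02 for all genes. Most members varied together over the 6 libraries, so the 36 do not count as independent results. The 3 KO libraries were all lower than the 3 controls for 2 of the 36 members, again Neb and Ryr1, a share near the 5.79% of all tested genes. The size of the shift rested on single libraries. The median was -0.42 without control 1, -0.08 without control 3, -0.12 without KO 1 and -0.34 without KO 2, and 0 members passed in any of these fits. Without control 1, 23 members were lower at an unadjusted p under 0.05, beside 3.34% of all genes in that fit. With library weights estimated by limma 29 were, beside 10.3% of all genes, with a median of -0.41 and a smallest adjusted p of 0.228, for Ryr1. Every other setting tried gave 0 to 3 members at an unadjusted p under 0.05 in limma. Among these settings were the fits without each of the other libraries, with 1 to 3 such members. A missed threshold does not show that levels were equal.

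**Figure D2:**
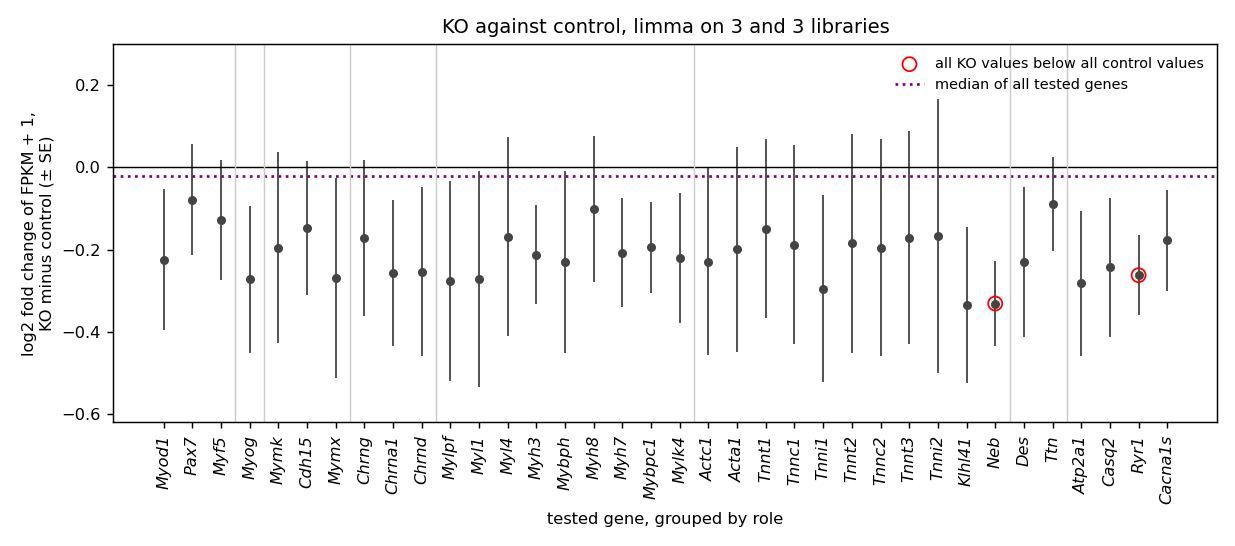
The log2 fold change of FPKM + 1, KO minus control, with its standard error from limma on 3 and 3 libraries, is plotted for the 36 tested muscle genes in order of role. All points lie below 0 and many error bars reach 0, while the circled genes Neb and Ryr1 have all KO values below all control values.

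Among the progenitor factors, Pax7 and Myf5 lay near 1 FPKM and Myod1 stood well above them. Pax7, the progenitor marker, stood at 1.09, 1.37 and 1.45 FPKM in controls and 0.898, 1.49 and 1.19 FPKM in KO libraries. Myf5, a commitment factor, stood at 0.910, 1.28 and 1.33 FPKM in controls and 0.838, 0.805 and 1.34 FPKM in KO libraries. Both genes overlapped between groups, and the highest value of each came from a KO library, KO 2 for Pax7 and KO 3 for Myf5. Myod1 (ENSMUSG00000009471, chr7:46376474-46379099 on the plus strand of GRCm38), which encodes the commitment factor MyoD, stood at 9.39, 13.9 and 16.3 FPKM in controls and 11.02, 11.5 and 10.1 FPKM in KO libraries. Its KO libraries lay close together, inside the range of the controls. The KO mean was 82.6% of the control mean, and the log2 fold change was -0.22 ± 0.17 (SE; limma, adjusted p = 1.00).

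Of the differentiation factors, myogenin was abundant and Myf6 was barely detected. Myog (ENSMUSG00000026459, chr1:134289989-134292548 on the plus strand) stood at 24.6, 37.0 and 40.7 FPKM in controls and 24.9, 31.4 and 26.5 FPKM in KO libraries. Control 1 and KO 1 were again the lowest pair, and the groups overlapped. Its log2 fold change was -0.27 ± 0.18 (SE; limma, adjusted p = 1.00). Myf6, the late factor also called MRF4, stood at 0.183, 0.150 and 0.383 FPKM in controls and 0.114, 0.283 and 0.153 FPKM in KO libraries, below the filter, and was not tested. Myog made up 71.5% to 72.7% of the sum of Myog and Myod1 in controls and 69.3% to 73.2% in KO libraries, so the ratio of late to early factor overlapped between groups.

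Progenitor and differentiated genes were then set side by side. The 3 progenitor factors had a median log2 fold change of -0.13, and the 32 tested of 33 differentiated genes, which are all members outside the progenitor and differentiation factors, had one of -0.21. This gap came with the 1 FPKM added before taking logs, which compresses genes as low as Pax7 and Myf5. With 0.1 FPKM added the medians were -0.23 and -0.24, and with 0.01 FPKM they were -0.24 and -0.24. With 1 FPKM added the progenitor factors also spanned less over libraries, with medians of -0.18, 0.07 and 0.11 in controls and -0.24, -0.15 and -0.07 in KO libraries. Those of differentiated genes were -0.39, 0.09 and 0.32 and -0.43, 0.04 and -0.27. With no constant added, progenitor medians were -0.35, 0.11 and 0.20 in controls and -0.47, -0.16 and -0.12 in KO libraries. Those of differentiated genes were then -0.47, 0.10 and 0.35 and -0.47, 0.06 and -0.29, so the spans were closer. In this alternative, added after the values had been seen, progenitor minus differentiated medians were 0.13, 0.02 and -0.15 in controls and 0.01, -0.22 and 0.16 in KO libraries. Both signs occurred in both groups.

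Summed levels, in which Myod1 makes up most of the progenitor sum, gave another view of the stages. In KO 2 the summed FPKM of differentiated genes, 863, was almost that of control 2, at 867, while the 3 progenitor factors summed to 13.8 FPKM beside 16.5 FPKM in control 2. The differentiated sum was 62.6 times the progenitor sum in KO 2, the highest of the 6 libraries. The ratio was 49.8, 52.4 and 52.8 in controls 1 to 3, 43.9 in KO 1, the lowest, and 50.1 in KO 3. KO 1 thus lay below the controls and KO 2 above them, while KO 3 lay inside their range. In log2(FPKM + 1), progenitor minus differentiated medians were 0.21, -0.02 and -0.22 in controls and 0.19, -0.19 and 0.20 in KO libraries. KO 2 did not stand apart on that scale, which compresses Pax7 and Myf5. With no constant added, KO 2 had the lowest difference of the 6 libraries, at -0.22, with control 3 next at -0.15.

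**Figure D3:**
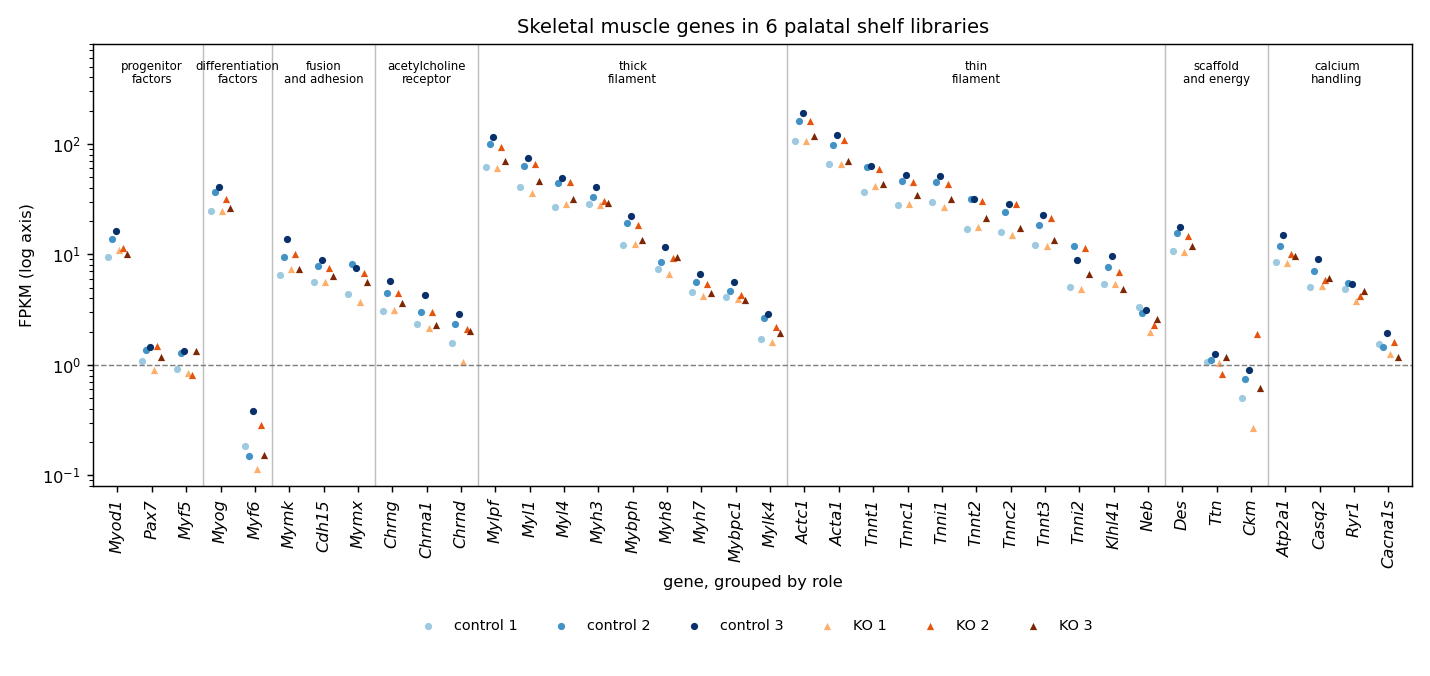
FPKM of the 38 muscle genes in each of the 6 libraries, on a log axis, with circles for controls, triangles for KO libraries and a dashed line at 1 FPKM. Control 3 and control 2 stand above control 1 for nearly every gene, and the triangles of KO 2 stand among the controls, while Pax7, Myf5, Ttn, Myf6 and Ckm lie around or below 1 FPKM.

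The fusion genes followed the library order. Mymk (chr2:27061636-27072179 on the minus strand), which encodes myomaker, stood at 6.54, 9.53 and 13.7 FPKM in controls and 7.37, 10.1 and 7.35 FPKM in KO libraries. Mymx (chr17:45600971-45602102 on the minus strand), which encodes myomixer, stood at 4.36, 8.12 and 7.55 FPKM in controls and 3.69, 6.75 and 5.57 FPKM in KO libraries. Cdh15, the muscle cadherin that joins myoblasts, stood at 5.57, 7.88 and 8.81 FPKM in controls and 5.65, 7.58 and 6.39 FPKM in KO libraries. All 3 overlapped, and control 1 and KO 1 were the lowest libraries of Mymx and Cdh15. The log2 fold change was -0.20 ± 0.23 for Mymk and -0.27 ± 0.24 for Mymx (SE; limma, adjusted p = 1.00 for both). That of Mymk turned to 0.04 without control 3. Mymx made up 40.5 ± 5.24% of the sum of both fusion genes in controls and 38.9 ± 4.97% in KO libraries (SD, n = 3 each; exact two-sided permutation test, p = 0.8).

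Of the subunits that tell the fetal from the adult receptor, the fetal one was the one detected. Chrna1, the ligand-binding alpha subunit, stood at 2.33, 3.04 and 4.28 FPKM in controls and 2.17, 2.99 and 2.29 FPKM in KO libraries. Chrng, the gamma subunit of the fetal receptor, stood at 3.07, 4.44 and 5.75 FPKM in controls and 3.13, 4.44 and 3.64 FPKM in KO libraries. Chrnd, the delta subunit, stood at 1.58, 2.33 and 2.86 FPKM in controls and 1.06, 2.11 and 2.04 FPKM in KO libraries. Chrne, the subunit that replaces gamma in the adult receptor, was listed at 0 in all 6 libraries. The values of KO 2 and control 2 were nearly equal for Chrna1 and Chrng, and all 3 genes overlapped between groups. The log2 fold change was -0.17 ± 0.19 for Chrng and -0.26 ± 0.18 for Chrna1 (SE; limma, adjusted p = 1.00 for both). That of Chrng was 0.00 without control 3.

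In the thick filament, the light chains were among the most abundant muscle transcripts, and the embryonic form led the heavy chains. Mylpf (chr7:127208890-127214298 on the plus strand), the fast regulatory light chain, stood at 61.2, 101 and 116 FPKM in controls and 60.9, 94.0 and 69.5 FPKM in KO libraries. Control 3 held 1.89 times the level of control 1, and KO 2 held 1.54 times that level, so the spread inside each group was wider than the distance between them. The log2 fold change of Mylpf was -0.28 ± 0.24 (SE; limma, adjusted p = 1.00). The alkali light chain Myl1 ranged from 40.9 to 74.4 FPKM in controls and from 35.6 to 65.9 FPKM in KO libraries, and Myl4, the embryonic and atrial light chain, from 26.6 to 49.4 and from 28.6 to 44.7 FPKM.

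Of the heavy chains, Myh3 (chr11:67078300-67102291 on the plus strand), embryonic myosin, stood at 28.6, 32.95 and 41.0 FPKM in controls and 27.7, 30.3 and 29.2 FPKM in KO libraries. Its log2 fold change was -0.21 ± 0.12 (SE; limma, adjusted p = 1.00), and KO 2 and KO 3 lay inside the range of the controls. Perinatal Myh8 ranged from 7.30 to 11.6 FPKM in controls and from 6.59 to 9.39 FPKM in KO libraries, and Myh7, the slow form, from 4.56 to 6.60 and from 4.24 to 5.36 FPKM. Of the sum of these 3 chains, Myh3 made up 69.9 ± 0.699% in controls and 69.0 ± 2.498% in KO libraries (SD, n = 3 each; exact two-sided permutation test, p = 0.6). Myh8 made up 18.6 ± 0.839% and 19.8 ± 2.46% (exact p = 0.4), and Myh7 11.5 ± 0.457% and 11.1 ± 0.762% (exact p = 0.4). The adult fast chains Myh2 and Myh4 were listed at 0 in all 6 libraries. Near-identical stretches of the myosin genes make the split of reads between them uncertain, as for the sarcomeric actins. Among the proteins that bind or modify myosin, Mybph ranged from 12.04 to 22.3 FPKM over the 6 libraries, Mybpc1 from 3.89 to 5.62 and the kinase gene Mylk4 from 1.63 to 2.91 FPKM.

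The thin filament held the highest muscle levels. Actc1 (chr2:114047282-114053548 on the minus strand), the cardiac actin that fetal skeletal muscle also uses, stood at 106, 160 and 191 FPKM in controls and 106, 160 and 117 FPKM in KO libraries. Controls 1 and 2 had the same rounded values as KO 1 and KO 2, and the difference between group means came from control 3 and KO 3. The log2 fold change was -0.23 ± 0.23 (SE; limma, adjusted p = 1.00). Acta1, skeletal actin, ranged from 65.0 to 120 FPKM in controls and from 65.4 to 108 FPKM in KO libraries. It made up 38.2 ± 0.464% of both actins in controls and 38.6 ± 1.43% in KO libraries (SD, n = 3 each; exact two-sided permutation test, p = 0.8), a share that stayed between 37.5% and 40.3% while Actc1 itself varied 1.81-fold.

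Troponins, the calcium switch of the thin filament, were mostly slow or fetal forms. The slow genes Tnnt1, Tnni1 and Tnnc1 ranged from 37.0 to 63.3, from 26.5 to 51.3 and from 27.7 to 51.9 FPKM over the 6 libraries. The fast genes Tnnt3, Tnni2 and Tnnc2 ranged from 11.8 to 22.5, from 4.84 to 11.98 and from 14.9 to 28.7 FPKM, and Tnnt2, the cardiac troponin T of fetal muscle, from 17.0 to 32.0 FPKM. The fast share was 24.6 ± 1.70% in controls and 24.2 ± 2.28% in KO libraries for troponin T, and 16.9 ± 3.70% and 17.9 ± 2.73% for troponin I (SD, n = 3 each; exact two-sided permutation test, p = 0.8 and 0.6). For troponin C it was 35.6 ± 1.11% and 35.4 ± 2.81% (exact p = 0.9). Tnni2 had its highest shares in control 2, at 21.1%, and KO 2, at 20.8%, and its lowest in control 1, at 14.6%. Over the 11 shares tested within muscle, the smallest exact p was 0.4, where 20 assignments allow 0.1 at best, and the smallest adjusted p was 0.978.

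**Figure D4:**
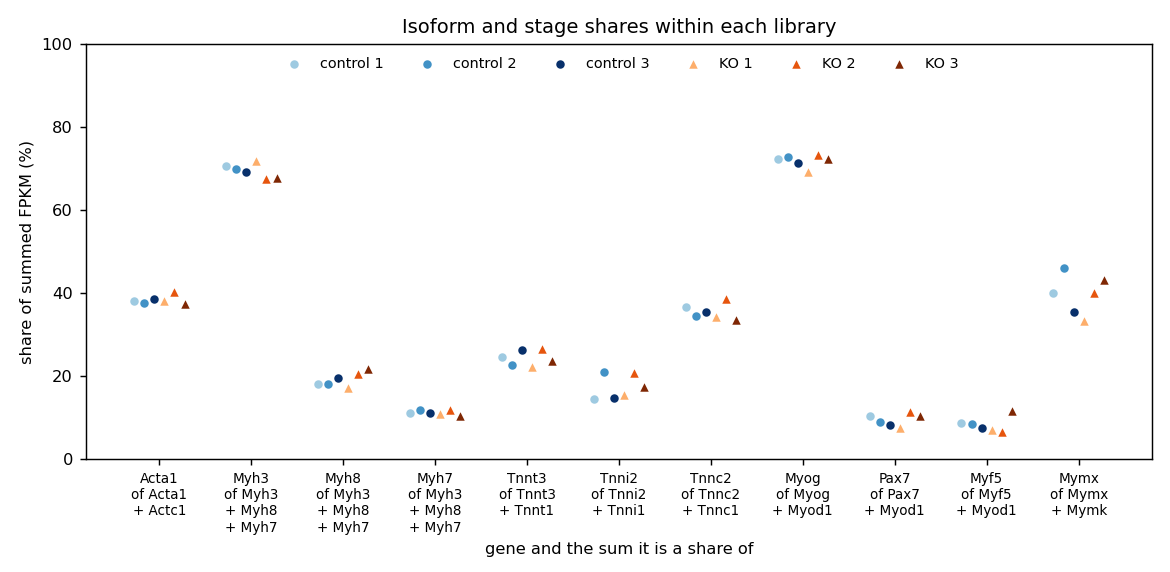
Shares of FPKM within each library, in percent, for 11 pairs or sets of muscle genes named on the x axis, with circles for controls and triangles for KO libraries. Groups overlap in each share, Acta1 stays between 37.5% and 40.3% of both actins, and Tnni2 stands higher in control 2 and KO 2 than in the other 4 libraries.

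Neb (ENSMUSG00000026950, chr2:52136647-52378474 on the minus strand) encodes nebulin, the giant protein that runs along the thin filament. It stood at 3.31, 2.94 and 3.12 FPKM in controls and 1.99, 2.27 and 2.59 FPKM in KO libraries. The groups did not overlap, as for 5.79% of all tested genes. Here control 1 was the highest library, against the order of the other members, and KO 1 the lowest. The KO mean was 73.2% of the control mean, and the log2 fold change was -0.33 ± 0.10 (SE; limma, adjusted p = 0.970). Klhl41, a stabiliser of nebulin, stood at 5.43, 7.61 and 9.58 FPKM in controls and 5.36, 6.89 and 4.83 FPKM in KO libraries, so its groups overlapped.

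In the scaffold group, Des, the intermediate filament desmin, stood at 10.8, 15.7 and 17.8 FPKM in controls and 10.5, 14.6 and 11.9 FPKM in KO libraries. Its log2 fold change was -0.23 ± 0.18 (SE; limma, adjusted p = 1.00), and its order of libraries was that of the members as a whole. Titin, Ttn (chr2:76703980-76982547 on the minus strand), the spring of the sarcomere, stayed between 1.06 and 1.26 FPKM in controls and between 0.831 and 1.18 FPKM in KO libraries, with its lowest value in KO 2. Ckm, muscle creatine kinase, stood at 0.497, 0.741 and 0.897 FPKM in controls and 0.269, 1.89 and 0.621 FPKM in KO libraries and was not tested. KO 2 held 7.04 times the Ckm level of KO 1, the widest spread of the 38 genes.

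Of the calcium-handling genes, Ryr1 (ENSMUSG00000030592, chr7:29003344-29125179 on the minus strand), the calcium release channel of the muscle store, stood at 4.84, 5.56 and 5.35 FPKM in controls and 3.76, 4.21 and 4.68 FPKM in KO libraries. As for Neb, the groups did not overlap, with KO 3 just below control 1. The log2 fold change was -0.26 ± 0.10 (SE; limma, adjusted p = 1.00). Atp2a1, the pump that refills the store, stood at 8.60, 11.9 and 15.1 FPKM in controls and 8.32, 10.1 and 9.76 FPKM in KO libraries. The difference of KO minus control on the log2 scale was -0.28 ± 0.18 (SE; limma, adjusted p = 1.00). Casq2, which buffers calcium in the store, ranged from 5.11 to 8.99 FPKM in controls and from 5.18 to 6.06 FPKM in KO libraries, and Cacna1s, the voltage sensor, from 1.47 to 1.96 and from 1.19 to 1.62 FPKM. Atp2a1, Casq2 and Cacna1s overlapped between groups.

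The 3 longest members, Ttn, Neb and Ryr1, followed the library order least among the differentiated genes. Across the 6 libraries their correlation with the median deviation of differentiated genes was 0.18, 0.33 and 0.62, beside a median of 0.95 over the 36 tested members, to which the differentiated members themselves contribute. Exonic lengths are 116825 bases for Ttn, 26582 for Neb and 21838 for Ryr1. The 11 tested members of up to 2000 exonic bases had median deviations in log2 FPKM of -0.50, 0.12 and 0.36 in controls and -0.49, 0.11 and -0.34 in KO libraries. The 25 longer ones had -0.42, 0.08 and 0.30 and -0.47, -0.05 and -0.28, so the libraries kept their order in both, save that control 1 and KO 1, the lowest pair, changed places.

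Levels moved with length in all genes too. Spearman's correlation of exonic length with the deviation was 0.67, -0.53 and -0.36 in controls and 0.24, -0.45 and 0.37 in KO libraries over the 36 members. Over 14483 genes it was 0.35, -0.30 and -0.18 and 0.24, -0.31 and 0.24, with the same sign in each library. In control 1, KO 1 and KO 3 long genes stood higher than short ones, and in control 2, control 3 and KO 2 they stood lower. These points share a library and are not independent. The median deviation of all genes up to 2000 bases was -0.08, 0.06 and 0.02 in controls and -0.08, 0.06 and -0.07 in KO libraries, a smaller range than in short muscle genes. The part of this length pattern in the members' values was not tested.

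**Figure D5:**
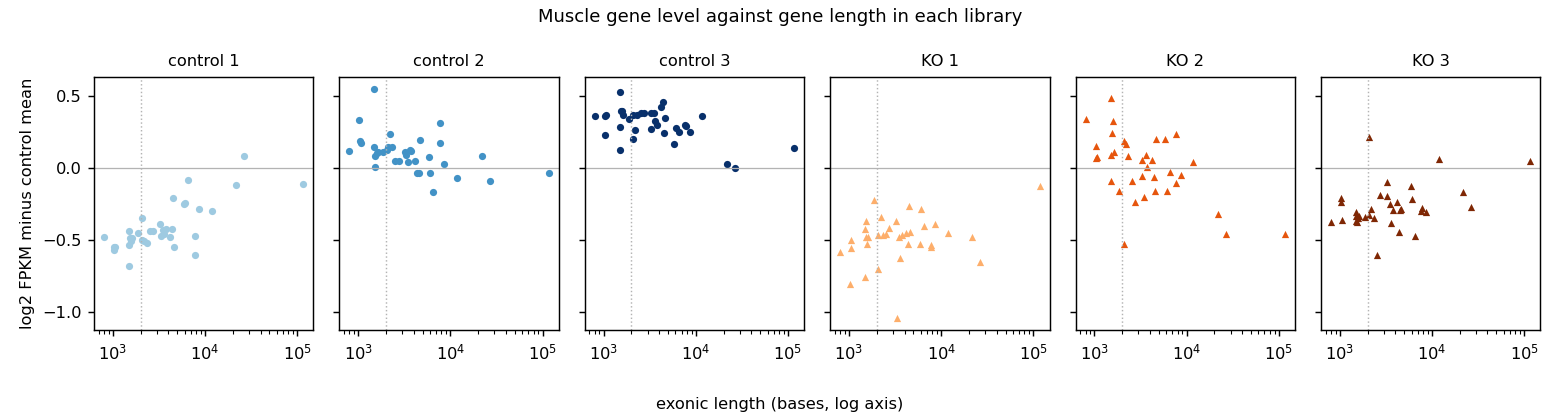
For each library, the log2 FPKM of the 36 tested muscle genes minus the control mean is plotted against exonic length on a log axis, with a dotted line at 2000 bases. Points of control 1 and KO 1 lie mostly below 0 and those of control 3 above it at most lengths, while Ttn, Neb and Ryr1, at the right, lie nearer to 0 in control 1 and control 3.

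Several members are also heart genes, among them Actc1, Tnnt2, Tnnc1, Myl4, Myh7 and Casq2, so heart markers were read beside them. Of 12 heart markers, 2 reached a mean of 1 FPKM. Nppb, Gata4, Tbx20 and Mybpc3 were at 0 in all libraries, Nppa was above 0 only in control 1 and Nkx2-5 only in control 2. The 12 summed to between 10.1 and 12.9 FPKM in controls and between 9.61 and 11.8 FPKM in KO libraries, most of it Tnni3 and Sln. Over the 6 libraries, Sln correlated at 0.97 with the median deviation of differentiated muscle genes. Of 13 smooth muscle and pericyte markers, 9 were tested and 0 passed in limma. At an unadjusted p under 0.05, 1 was lower in KO, beside 1.92% of all tested genes. All KO libraries stood below the controls for 2 of the 9 (22.2%, beside 5.79% of all tested genes). The 13 markers summed to between 157 and 178 FPKM in controls and between 155 and 169 FPKM in KO libraries, with Cnn1 at 0 in control 1. Smooth muscle actin, Acta2, which is near-identical to the sarcomeric actins and is also made by young skeletal muscle, stood at 39.3, 53.4 and 57.1 FPKM in controls and 41.4, 54.7 and 45.9 FPKM in KO libraries. That is close to the order of the members, while Myh11, the smooth muscle myosin, lay between 0.490 and 1.03 FPKM and was lowest in KO 2.

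Markers of other cell types in the shelves were read in the same way. Endothelial markers resembled the muscle genes between groups, with all 10 below 0 and a median log2 fold change of -0.18. Of these 10, 0 passed in limma and 3 were lower at an unadjusted p under 0.05, beside 1.92% of all tested genes. All KO libraries stood below the controls for 4 of the 10, beside 5.79% of all tested genes. Medians of the endothelial markers were -0.08, -0.02 and 0.13 in controls, in the same order as in muscle. They were -0.13, -0.39 and -0.09 in KO libraries, where KO 2 was the lowest and not the highest. Endothelial markers summed to between 186 and 231 FPKM in controls and between 148 and 189 FPKM in KO libraries. Median deviations of 14 cartilage markers were -0.21, -0.41 and 0.68 in controls and 0.83, -1.40 and -1.70 in KO libraries, and their sums ran from 330 to 678 FPKM and from 188 to 811 FPKM. KO 1 was thus high in cartilage and low in muscle, and control 3 was high in both. Of 12 neuronal markers, 11 were tested and their medians were -0.28, 0.03 and 0.35 in controls, as in muscle, but 0.27, -0.36 and -0.55 in KO libraries. Tendon markers, which number 8, had medians of -0.09, 0.02 and -0.00 in controls and 0.01, -0.30 and 0.16 in KO libraries. The 12 markers of palatal mesenchyme had medians of 0.14, -0.08 and -0.03 and -0.04, -0.11 and 0.18. Schwann cell markers, 7 of 8 tested, had medians of -0.06, -0.01 and 0.06 and 0.26, -0.26 and -0.12, and the 11 oral epithelium markers 0.04, 0.14 and -0.14 and -0.01, 0.38 and -0.34. The part of tissue make-up in the muscle values was not tested.

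Other genes of the lineage, taken from lists that hold no member, were read in the same fit. Of 64 further structural genes of differentiated muscle, 45 were tested, 0 passed in limma and 2 were lower at an unadjusted p under 0.05, beside 1.92% of all genes. All KO libraries stood below the controls for 5 of the 45 (11.1%, beside 5.79% of all genes). Below 0 were 41 of 45, with a median log2 fold change of -0.19, and the medians per library were -0.28, 0.03 and 0.21 in controls and -0.32, -0.07 and -0.16 in KO libraries, the order of the members. Hacd1, an enzyme of fatty acid elongation needed in muscle, stood at 9.61, 8.08 and 12.7 FPKM in controls and 5.45, 6.81 and 6.12 FPKM in KO libraries. It was 1 of those 5, and its log2 fold change was -0.63 ± 0.15 (SE; limma, adjusted p = 0.467). Sgca, a sarcoglycan of the muscle membrane, had one of -0.37 ± 0.14, and Rapsn, which clusters acetylcholine receptors, one of -0.40 ± 0.18 (SE; limma, adjusted p = 1.00 for both).

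The 20 further regulators of muscle, several of which facial mesenchyme also expresses, did not show the library order. Of 19 tested, 0 passed in limma and 1 was lower at an unadjusted p under 0.05, beside 1.92% of all tested genes. Below 0 were 12 of the 19, beside 59.4% of all tested genes, and the 19 had a median log2 fold change of -0.05. Their medians per library were 0.02, -0.03 and -0.01 in controls and -0.06, -0.09 and 0.08 in KO libraries. Heyl, a Notch target, had a log2 fold change of -0.24 ± 0.10, Lhx2, a head muscle regulator, one of 0.57 ± 0.25 and Eya1, a transcriptional co-activator, one of -0.12 ± 0.07 (SE; limma, adjusted p = 1.00 for each).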

How the data were processed

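Total RNA was isolated from the shelves with a ReliaPrep kit, per the labels' protocols. The authors deposited FPKM, in 1 table of 55631 Ensembl genes and 6 libraries, and that unit is taken from the name of the table. The submitters' processing notes name genome build mm10 and DESeq2 version 1.5.2, and the aligner, counter and annotation release were not given in the sources used here. Depth is unknown, so no counting interval is given.

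Members were matched by Ensembl ID through the GENCODE annotation of GRCm38, which named 50824 IDs. Genes averaging 1 FPKM or more were tested as log2(FPKM + 1) in limma 3.58.1 (R 4.3.3, lmFit and eBayes with trend, genotype only, two-sided, Benjamini-Hochberg over 14714 genes, threshold 0.05). This log scale understates changes of low genes. The model was run on simulated data in which genes varied independently. That run cannot tell how the model behaves where genes vary together over libraries, as the members do here. Shares within a library were compared by exact permutation tests (scipy 1.17.1). A deviation is a library's log2 value minus the control mean.

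Fold changes are printed for the member with the highest mean and the member with the smallest p of each role, for up to 3 genes of each other list, and likeness for 8 genes. Members and lists were chosen with earlier results of these data known. Alternatives were other pseudocounts, filters, scalings, variance models, library weights, a replicate block and leaving out each library.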

Additional observations from a re-analysis of the deposited data

How the results depend on the processing

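The counts of 0 members called higher and 0 called lower held under all 17 alternatives run, and the median log2 fold change of the members stayed below 0 in each. It ran from -0.42 to -0.08 when 1 library was left out, from -0.22 to -0.07 for progenitor factors and from -0.42 to -0.08 for differentiated genes. The lowest came without control 1 and the highest without control 3. Among the 36 members, 31 were below 0 without control 3, 33 without KO 1 and 35 without control 2. When 1 library was left out, Mymk ran from -0.44 to 0.0445 and Chrng from -0.36 to 0.0020 on the log2 scale, both turning without control 3. The difference in share, KO minus control in percentage points, changed sign for 8 of 11 shares and ran from -0.33 to 1.03 for Acta1, from -1.60 to 0.66 for Tnnt3, from -0.45 to 3.16 for Tnni2, from -1.79 to 0.81 for Tnnc2, from -1.39 to 0.57 for Myog, from -0.19 to 1.77 for Pax7, from -1.47 to 1.09 for Myf5 and from -4.14 to 1.08 for Mymx. These differences had no call to lose. The cause was not tested.

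With a replicate block the members' median was -0.21 and 0 members passed. Libraries with the same number correlated at 0.02, 0.31 and -0.24 in their deviations from the mean of their own group. Those with different numbers correlated at between -0.28 and 0.31. With 3 libraries per group these values cannot tell whether the numbers mark pairs, and the labels do not say. Rescaling to TPM moved the share of all genes below 0 from 59.4% to 46.5%, and 36 of 37 tested members were then below 0. With no filter on low values 37 of 38 members were below 0. With 3 libraries per group and unknown depth, small differences in any member may have been missed, those of Pax7, Myf5 and Ttn near 1 FPKM among them.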

Other observations

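Outside the members, the 8 genes whose values over the 6 libraries were most like the median deviation of differentiated muscle genes were Osbpl2, Mlf2, Smyd1, Ik, Mrpl17, Tmem147, Tpm3 and Tbcb, with Pearson correlations from 0.98 to 0.99 among 12601 candidates. Smyd1, a methyltransferase needed for sarcomere assembly, is 1 of the 64 further structural genes, and it stood at 4.85, 6.74 and 7.82 FPKM in controls and 5.09, 6.60 and 5.69 FPKM in KO libraries. The slow tropomyosin gene Tpm3, which other cells also use, stood between 121 and 137 FPKM. A correlation over 0.9 was held by 414 candidates (3.29%), by 21 of the 45 tested structural genes and by 25 of the 36 tested members. These correlations rest on 6 libraries and are a description.

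Among candidates with a correlation over 0.9, 55 also varied at least 1.5-fold over the libraries, a limit set after the values had been seen. Of these, 19 were in the structural list and 0 in the regulator list. Others known from muscle were Myl6b, Smpx, Csrp3, Trim72, Mypn, Myot and Lmod3, which belong to the sarcomere or the muscle membrane, and Fgfr4, a receptor of embryonic myoblasts. These names were picked after the values had been seen. The genes outside both lists also held Hist1h4b, Zfp575, Ddc and Trim13, so likeness alone does not mark a muscle gene. Mfsd4a, a transporter-like gene, stood at 0.948, 11.4 and 10.2 FPKM in controls and 0.9004, 10.4 and 0.960 FPKM in KO libraries, so control 2, control 3 and KO 2, the libraries with the most muscle RNA, held over 10 times the level of the other 3.

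Macrophage markers stood higher in KO libraries. Their medians were -0.07, -0.07 and 0.10 in controls and 0.40, 0.74 and 0.32 in KO libraries, with all KO libraries above all controls for 9 of 10, beside 3.27% of all tested genes. In limma 0 were called, and 9 were higher at an unadjusted p under 0.05, beside 2.09% of all tested genes. KO 2, the KO library with the most muscle RNA, was also the one with the highest median of macrophage markers.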
